A study of Mus musculus with 9 samples.

Results

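Transcripts of 36 genes of fatty acid oxidation, ketone body formation and PPARA-linked lipid metabolism were followed in the livers of Swiss mice. The genes were chosen by name from a list, with earlier results of these data known. All 36 were found, once each, among the 25781 genes of the table. They were divided by role into 5 genes of fatty acid activation and the carnitine shuttle, 10 of the mitochondrial oxidation cycle, 3 of electron transfer, 7 of the peroxisome, 5 acyl-CoA thioesterases, 1 of ketone body formation and 5 other genes linked to PPARA. RNA sequencing of whole liver, labelled as from mice aged 10 to 12 weeks, gave 3 libraries in each of 3 groups. The control group is labelled only as control, with no agent named. The β-CYP group received β-CYP, an abbreviation that the labels leave unexplained, at 40 mg/kg, and the design text calls it the injury group. The third group received the same dose of β-CYP with sodium selenite (Na2SeO3) at 50 µg/kg, and is called the selenite group here. No group received selenite alone, so the selenite group differs from control by both agents. Time, route and sex are not in the labels, nor whether the 3 libraries of a group are separate animals, so the p-values measure only how these libraries vary, and that variation may be technical.

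Hepatocytes burn fatty acids in mitochondria and peroxisomes. A long-chain fatty acid is first joined to coenzyme A, passed to carnitine to cross the inner mitochondrial membrane, and shortened in repeated rounds of dehydrogenation, hydration, dehydrogenation and thiolysis, with electrons leaving through the electron transfer flavoprotein. In fasting the liver turns the resulting acetyl-CoA into ketone bodies for other organs. Peroxisomes shorten very long and branched chains first. PPARA, a nuclear receptor that binds fatty acids, raises the transcription of many of these genes in liver.

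Levels are given as scaled counts, that is, reads of a gene divided by a factor of its library, and a log2 change is a difference of log2(scaled count + 1) with its standard error in limma's model (n = 3 per group). A gene is said to rise or fall only where limma's p, adjusted over 20145 genes, was under 0.05, and all 36 genes passed the minimum mean scaled count of 1. Libraries held 28630269 to 36029560 reads. Control replicate 2 stood apart, with 1805976 reads of the rRNA-like transcript AY036118 against 26685 to 71931 in the other 8 libraries. Of 6 hepatocyte markers 5 were in the table, and their share of reads was 7.97% to 8.82% for control, 10.2% to 10.6% for β-CYP and 9.62% to 9.71% for selenite. The sum hid unequal changes, since in selenite against control Fgb (1.14) and Apoa1 (0.26) rose while Alb (-0.13), Ttr (-0.26) and Cps1 (-0.28) fell on the log2 scale. Alb, which encodes albumin, had the same signs as most of the 36 genes, while the other hepatocyte markers did not all do so. Alb was at 0.25, -0.38 and -0.13 in β-CYP against control, selenite against β-CYP and selenite against control. In β-CYP against control Apoa1 (0.35) and Fgb (0.78) also rose, Cps1 (-0.057) fell and Ttr (0.046) did not pass. From β-CYP to selenite Apoa1 (-0.090), Ttr (-0.31) and Cps1 (-0.23) also fell, and Fgb (0.36) rose. Markers of other tissues moved with the groups. Summed over 11 of 12 listed markers, the libraries held 977 to 1079 pancreatic acinar reads (control), 1160 to 1253 (β-CYP) and 33569 to 34599 (selenite), the last at most 0.105% of a library. In control 6 of the 11 were at 0, and in β-CYP 5. Nearly all acinar reads of these 2 groups came from Cela1 (3027 in control and 3569 in β-CYP, against 9056 in selenite, over each group). Over 7 of 8 listed muscle and heart markers there were 17 to 20, 19 to 21 and 848 to 888 reads, with 4 at 0 in control and 5 in β-CYP. Most of these reads in control and β-CYP came from Myh6 (41 and 40, against 59 in selenite, over each group). Over 7 spermatid markers there were 259 to 316, 3 to 8 and 0 to 5 reads, with 4 at 0 in β-CYP and 6 in selenite. Sums over 6 of 7 adipocyte markers were 275 to 326, 834 to 909 and 750 to 803 reads, nearly all from Fabp4 (801, 2541 and 2177 reads over each group). Adipoq (34 reads over the control libraries), Plin1 (14) and Retn (6) were at 0 in β-CYP. In selenite they had 32, 22 and 3 reads. Cidea had 0, 18 and 3 reads over control, β-CYP and selenite, and Cfd 57, 37 and 77. Of the 6 adipocyte markers 1 rose (Fabp4) and 1 fell (Adipoq) in β-CYP against control. From β-CYP to selenite Adipoq (3.30 ± 0.54) and Plin1 (2.90 ± 0.81) rose on the log2 scale, and the others did not pass. Over 6 neutrophil markers there were 65 to 77, 403 to 461 and 506 to 674 reads. Their part in the results below was not tested. In whole tissue, fewer cells of a type and less RNA per cell cannot be told apart. For the 28 of the 36 genes with a mean of at least 1000 scaled counts, libraries of one group typically varied by 2.17% to 2.75% of their mean (the median SD over the mean, per group), where counting alone gives 1.33% to 1.47%.

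Most of the 36 genes were modestly higher in β-CYP than in control and lower in selenite than in β-CYP. In β-CYP against control, 21 rose and 3 fell (58.3% and 8.33% of the 36), where 7.72% of all genes tested rose and 8.58% fell. Their median log2 change was 0.19, against -0.0013 over all genes. In selenite against β-CYP, 3 rose and 23 fell (8.33% and 63.9%), where 11.6% of all genes rose and 12.3% fell, and the medians were -0.26 and 0.017. In selenite against control, 7 rose and 16 fell (19.4% and 44.4%), where 14.4% of all genes rose and 14.5% fell, and the medians were -0.086 and 0.027. All 3 libraries of one group lay above those of the other for 23 genes and below for 5 in β-CYP against control, where 15.4% and 16.2% of all genes did. The numbers were 6 and 24 in selenite against β-CYP (19.3% and 18.5% of all genes) and 9 and 17 in selenite against control (21.4% and 20.4%). The 3 comparisons share libraries, so their values are given side by side and not as separate evidence. Abundant genes pass a test more readily. Among the 3623 genes with a mean of at least 1000 scaled counts, a level chosen after the values were seen, 17.8% rose and 21.6% fell in β-CYP against control, while 17 of the 28 listed genes in that range rose and 2 fell. In selenite against β-CYP, 18.0% of these 3623 genes rose and 36.5% fell, while 1 of the 28 rose and 22 fell. In selenite against control the shares were 21.4% and 39.1%, and 4 of the 28 rose and 16 fell.

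The scaling of the libraries mattered for the selenite group. With libraries scaled to equal totals, the median of all genes moved to 0.14 in selenite against β-CYP and to 0.16 against control, and the median of the 36 genes to -0.13 and 0.051, so both medians stayed below those of all genes. Under quantile normalization the 36 genes were at -0.14 and 0.080 and all genes at -0.012 and -0.0047, so against control their median was the higher one. With equal totals their counts became 5 up and 14 down against β-CYP, where 3238 of all 20146 genes tested rose and 1334 fell. Against control they were 9 up and 6 down, where 3977 of all genes rose and 1763 fell. Under quantile normalization, which forces all libraries to one distribution, they were 5 up and 19 down, and 11 up and 7 down. Of all 20145 genes 2308 rose and 2345 fell there against β-CYP, and 2814 rose and 2860 fell against control. The 14 and the 6 that fell with equal totals were all among the 23 and the 16 of the deposited scaling. Falls in selenite against control thus held under both these scalings for Acsl1, Acads, Etfdh, Ehhadh, Acaa1b and Decr2 only. Etfb fell under quantile normalization and not with equal totals. The other falls of the deposited scaling passed downward under neither. In β-CYP against control the counts were 15 up and 3 down with equal totals and 20 up and 3 down under quantile normalization. None of the 36 genes that passed changed direction under either. Of all genes, 1245 rose and 1317 fell with equal totals, and 1543 rose and 1655 fell under quantile normalization. Without control replicate 2 the counts were 19 up and 3 down, 3 and 23, and 6 and 15 in the order of comparisons above.

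**Figure D1:**
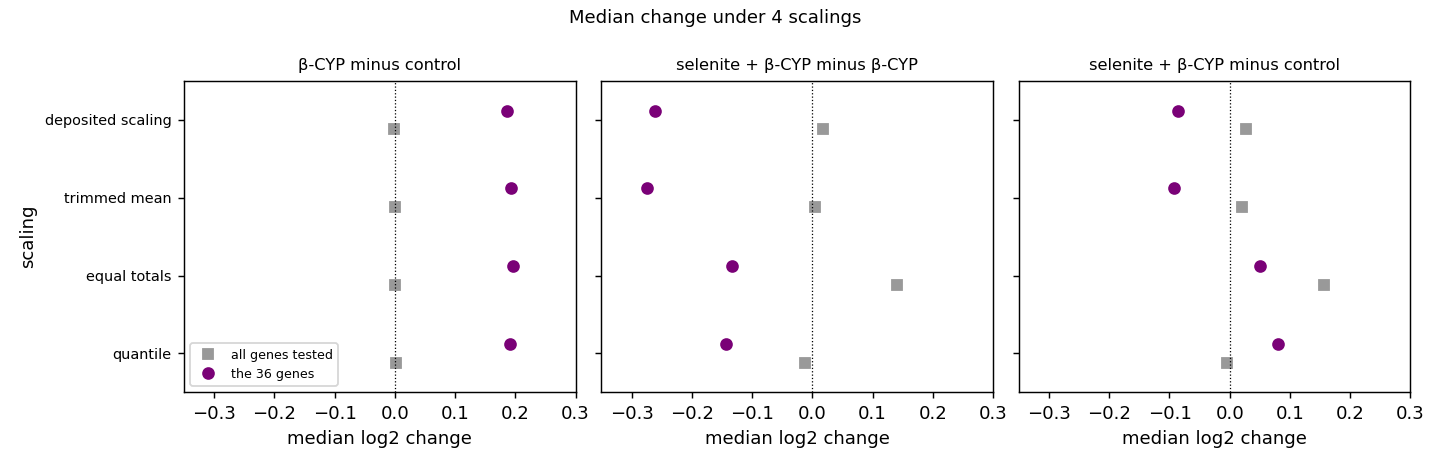
Median log2 change (x axis) of the 36 genes (circles) and of all genes tested (squares) under 4 ways of scaling the libraries (y axis), for each of the 3 comparisons; n = 3 libraries per group. The circles lie to the right of the squares in β-CYP minus control and to the left in selenite minus β-CYP under all 4 scalings, while in selenite minus control the circle moves from -0.086 with the deposited scaling to 0.080 under quantile normalization.

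The nuclear receptor PPARA, with its partner RXR, binds a direct repeat of the half-site AGGTCA with 1 base between the copies. Promoter sequences, 300 bases each from 250 before to 50 after a start site, were taken from RefSeq (build GRCm38.p6), which had an entry for 31 of the 36 genes. The repeat was searched on both strands with up to 2 mismatches in its 12 fixed bases, and was found for 5 of the 31 genes (16.1%), against 4.40% of the 27025 genes in the RefSeq table. An exact half-site was found for 8 of the 31 (25.8%), against 18.1%. Such a match describes letters only. The 5 promoter stretches with a match are shown so that it can be read beside the changes of their genes, 5′ to 3′ along the gene, with the match in capitals. Those of Creb3l3 and Slc25a20 read in the direction of the gene and those of Acot12, Acot4 and Etfa on the opposite strand. The Acot12 stretch has 1 mismatch and the others 2. The Slc25a20 match begins 6 bases after the start site, and the others before it. Creb3l3 has another RefSeq start site, and the window there holds no match (4 mismatches at the fewest).
Acot12, chr13:91741357-91741477, plus strand: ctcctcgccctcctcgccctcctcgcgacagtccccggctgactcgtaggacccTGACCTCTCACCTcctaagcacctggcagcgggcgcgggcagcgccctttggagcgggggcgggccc
Acot4, chr12:84038312-84038428, plus strand: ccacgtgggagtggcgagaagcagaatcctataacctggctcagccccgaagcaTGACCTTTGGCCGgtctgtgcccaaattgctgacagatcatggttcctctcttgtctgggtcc
Creb3l3, chr10:81092734-81092841, minus strand: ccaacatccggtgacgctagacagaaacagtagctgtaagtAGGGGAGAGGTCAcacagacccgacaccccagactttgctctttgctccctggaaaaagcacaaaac
Etfa, chr9:55512254-55512374, minus strand: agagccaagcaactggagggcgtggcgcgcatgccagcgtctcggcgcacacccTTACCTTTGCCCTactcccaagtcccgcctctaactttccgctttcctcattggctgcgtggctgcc
Slc25a20, chr9:108662088-108662185, plus strand: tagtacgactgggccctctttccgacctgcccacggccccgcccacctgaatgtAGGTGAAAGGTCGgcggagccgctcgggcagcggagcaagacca
These 5 genes did not move as a group. In β-CYP against control Slc25a20 (0.33) and Creb3l3 (0.16) rose and Acot4 (-0.65) fell on the log2 scale, while Etfa (0.08) and Acot12 (-0.09) did not pass. From β-CYP to selenite Acot4 (0.71) rose, and Slc25a20 (-0.26) and Etfa (-0.20) fell, neither with equal totals. Creb3l3 (0.06) and Acot12 (0.03) did not pass there. From control to selenite only Creb3l3 (0.21) passed with the deposited scaling.

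The genes that bring fatty acids into the mitochondrion did not change together. Acsl1 (ENSMUSG00000018796), which joins long-chain fatty acids to coenzyme A, fell in β-CYP. Its scaled counts were 17816, 19157 and 18661 in control, 11831, 11248 and 11849.6 in β-CYP and 14131, 14802 and 13873 in selenite. The 3 groups did not overlap, with β-CYP lowest and selenite between β-CYP and control. Acsl1 differed by a log2 change of -0.67 ± 0.036 between β-CYP and control (adjusted p = 1.2e-06), by 0.29 ± 0.036 between selenite and β-CYP (adjusted p = 0.000262) and by -0.38 ± 0.036 between selenite and control (adjusted p = 3.6e-05). Cpt1a (ENSMUSG00000024900), which makes acylcarnitines at the outer membrane and is the main control point of entry, went the other way. Its libraries held 13898, 13994 and 14033 scaled counts in control, 17449.8, 17243 and 17260.5 in β-CYP and 14906, 15857 and 15414 in selenite, again without overlap. Cpt1a was 1.24-fold of control in β-CYP (log2 change 0.31 ± 0.025, adjusted p = 2.0e-05) and remained above control in selenite (0.14 ± 0.025, adjusted p = 0.00222). Its fall from β-CYP to selenite (-0.17 ± 0.025) turned to a log2 change of 0.076 under quantile normalization and did not pass there or with equal totals (adjusted p = 0.0751 and 0.605).

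Slc25a20 (ENSMUSG00000032602), the carrier that swaps acylcarnitine for carnitine across the inner membrane, had 2059, 2144 and 2148 scaled counts in control, 2646, 2714 and 2622 in β-CYP and 2286, 2227 and 2170.4 in selenite. It rose in β-CYP by 0.33 ± 0.037 (adjusted p = 0.000192) and fell with selenite, -0.26 ± 0.037 (adjusted p = 0.000687, or 0.123 with equal totals). From control to selenite Slc25a20 did not pass with the deposited scaling (0.07 ± 0.037). It passed upward there with equal totals (0.21, adjusted p = 0.0155) and under quantile normalization (0.14, adjusted p = 0.0205). Cpt2, which returns the acyl group to coenzyme A inside, and Crat, which makes short-chain acylcarnitines, passed in none of the 3 comparisons. Both had libraries apart from their group. Cpt2 had 4269.5, 3325 and 3077 scaled counts in control, and Crat 967, 553 and 555 in selenite.

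Within the mitochondrial oxidation cycle, 7 of 10 genes rose in β-CYP and none fell, and 9 of 10 fell from β-CYP to selenite, with medians of 0.20 and -0.36. With equal totals 5 rose and then 6 fell, and under quantile normalization 7 rose, and then 8 fell and 1, Hadha, rose. The first step is taken by acyl-CoA dehydrogenases of different chain length. Acadvl (ENSMUSG00000018574), for very long chains, had 9278, 9119.6 and 9703 scaled counts in control, 10961, 10743 and 10863 in β-CYP and 7721, 7849 and 7362 in selenite. The order of the groups was selenite, control, β-CYP, without overlap. Acadvl rose by 0.21 ± 0.033 in β-CYP (adjusted p = 0.00150) and fell with selenite, -0.51 ± 0.033 (adjusted p = 2.6e-06). Acadl, for long chains, and Acadm, for medium chains, had the same order of groups, with log2 changes in β-CYP of 0.26 ± 0.033 and 0.22 ± 0.033 and from β-CYP to selenite of -0.37 ± 0.033 and -0.35 ± 0.033. Acads (ENSMUSG00000029545), for short chains, was unlike the other 3 dehydrogenases in not passing in β-CYP (-0.03 ± 0.057, adjusted p = 0.834), though this difference between genes was not tested. Acads held 3551, 3669 and 3767 scaled counts in control, 3861, 3674 and 3282 in β-CYP and 2463, 2529 and 2408 in selenite. Control and β-CYP overlapped, and every selenite library lay below both. Its fall to selenite was -0.54 ± 0.057 from β-CYP (adjusted p = 8.0e-05) and -0.57 ± 0.057 from control (adjusted p = 4.6e-05).

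The trifunctional protein, made of Hadha and Hadhb, which carries out the later steps for long chains, gave few passing changes. Hadha was at 10367 ± 252 (mean ± SD) scaled counts in control, 10642 ± 96.2 in β-CYP and 9330.2 ± 117 in selenite, and its fall from β-CYP to selenite, -0.19 ± 0.025, became a rise of 0.096 under quantile normalization. Hadhb passed in no comparison, with log2 changes of -0.05, -0.01 and -0.07 in the order of comparisons above. Of the 50-base stretches in the Hadhb transcript, 62.4% also occur in transcripts of other genes of the GENCODE M21 annotation, almost all in the pseudogene Gm13910, which had 571 to 664 scaled counts over the 9 libraries. No source used here says how shared reads were counted, so the level of Hadhb is uncertain. Hadh (ENSMUSG00000027984), the dehydrogenase for shorter chains, had 6959, 6740.1 and 6683 scaled counts in control, 7469, 7618 and 7285 in β-CYP and 5782, 5695 and 5657 in selenite. Hadh rose by 0.13 ± 0.028 (adjusted p = 0.00955, or 0.140 with equal totals) and fell with selenite, -0.38 ± 0.028 (adjusted p = 6.7e-06).

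The thiolase Acaa2, which ends each round, had 21164, 20176 and 20721 scaled counts in control, 24673, 24082 and 23129 in β-CYP and 18265, 18176 and 18802 in selenite. The groups did not overlap. Acaa2 rose by 0.21 ± 0.029 and fell from β-CYP to selenite, -0.38 ± 0.029. Eci1 and Decr1, which prepare unsaturated chains for oxidation, rose by 0.35 ± 0.058 and 0.19 ± 0.043 and fell from β-CYP to selenite (-0.32 ± 0.058 and -0.25 ± 0.043, neither past the threshold with equal totals). The rise of Decr1 (adjusted p = 0.0153) was lost with equal totals (adjusted p = 0.108) and without β-CYP replicate 2 or 3 or control replicate 2 or 3 (adjusted p up to 0.0593). Against control, 7 of the 10 cycle genes fell in selenite, with a median of -0.14, but only 1 fell with equal totals or under quantile normalization, and that was Acads. Acadl and Acadm turned to log2 changes of 0.031 and 0.0064 with equal totals and 0.0076 and 0.079 under quantile normalization, none past the threshold, whereas Hadha (0.12) and Acaa2 (0.12) passed upward under quantile normalization. Acadl (-0.11 ± 0.033, adjusted p = 0.0379) was also lost when any of 6 libraries was left out, namely β-CYP replicate 2, selenite replicate 2 or 3 or any control (adjusted p up to 0.111), and Acadm (-0.13 ± 0.033) without selenite replicate 2 (adjusted p = 0.0512).

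**Figure D2:**
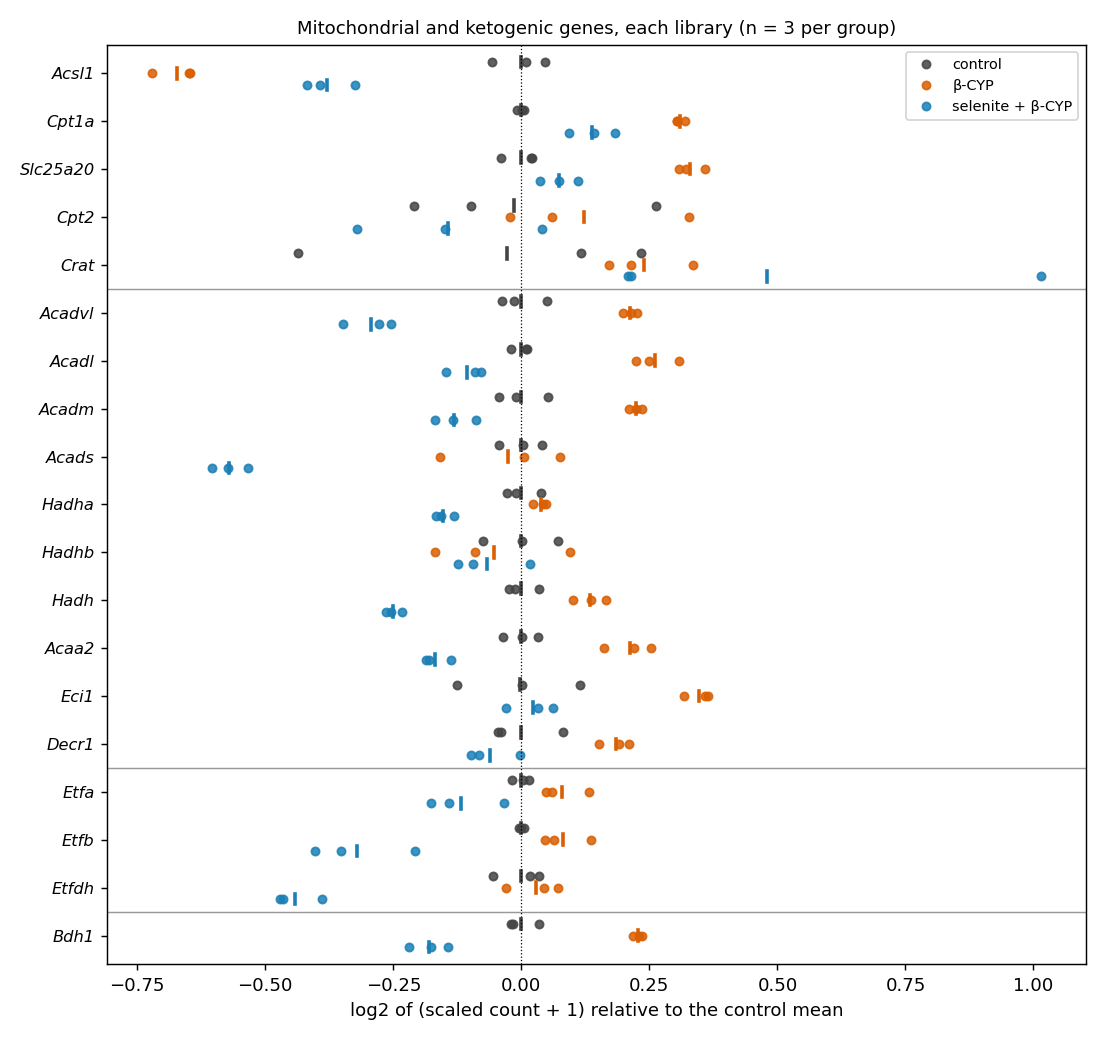
Each point is 1 library of control, β-CYP or selenite with β-CYP, as log2 of (scaled count + 1) relative to the control mean (x axis), and each tick the mean of its group, for the carnitine shuttle, the mitochondrial cycle, electron transfer and Bdh1, separated by lines. For most genes β-CYP libraries lie to the right of control and selenite libraries to the left of β-CYP; Acsl1 is the reverse, with β-CYP at a log2 change of -0.67.

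Electrons from the acyl-CoA dehydrogenases pass to the electron transfer flavoprotein, made of Etfa and Etfb, and on to Etfdh, which reduces ubiquinone. None of the 3 genes passed in β-CYP against control (log2 changes of 0.08, 0.08 and 0.03), and all 3 fell from β-CYP to selenite. Etfdh (ENSMUSG00000027809) had 8687, 8793 and 8263 scaled counts in control, 9014, 8408 and 8846 in β-CYP and 6549.7, 6214 and 6186 in selenite, and the selenite libraries were below all others. The change was -0.47 ± 0.038 from β-CYP (adjusted p = 1.3e-05) and -0.44 ± 0.038 from control (adjusted p = 1.6e-05). Etfb fell from β-CYP to selenite, -0.40 ± 0.048 (adjusted p = 0.000208). Against control Etfb was at -0.32 ± 0.048 in selenite (adjusted p = 0.000744, or 0.0667 with equal totals). The gene Gm45233 overlaps Etfb and shares 67.3% of its 50-base stretches, and it had 0 to 16.3 scaled counts. Etfa fell too, -0.20 ± 0.040, which was lost with equal totals and under quantile normalization (adjusted p = 0.494 and 0.999).

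Peroxisomal genes moved in more than 1 way. In β-CYP against control 5 of the 7 rose and 1 fell, from β-CYP to selenite none rose and 6 fell, and in selenite against control 2 rose and 5 fell, with medians of 0.22, -0.33 and -0.21. The 5 that fell against control became 3 with equal totals and under quantile normalization. Slc27a2 (ENSMUSG00000027359), which activates very long chains and takes up fatty acids, had 34389, 34563 and 34557 scaled counts in control, 40100.1, 40146 and 40032 in β-CYP and 31697, 32106 and 31775 in selenite. Replicates differed little from each other beside the gaps between groups. Slc27a2 rose by 0.22 ± 0.015 in β-CYP (adjusted p = 8.9e-06). Its fall to selenite, -0.33 ± 0.015 from β-CYP and -0.12 ± 0.015 from control, depended on the scaling, with log2 changes of 0.069 and 0.29 under quantile normalization and 0.021 against control with equal totals. Only the 0.29 passed upward.

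Ehhadh (ENSMUSG00000022853), the bifunctional enzyme of the peroxisomal cycle, was the peroxisomal gene that fell in β-CYP. It had 4909, 5009 and 4798 scaled counts in control, 4181, 4173 and 4313 in β-CYP and 3764, 3629.6 and 3668 in selenite. The groups descended in that order without overlap. The log2 change was -0.22 ± 0.031 in β-CYP (adjusted p = 0.000970), -0.20 ± 0.031 from β-CYP to selenite (adjusted p = 0.00128, or 0.377 with equal totals) and -0.41 ± 0.031 from control to selenite (adjusted p = 6.2e-06).

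The peroxisomal thiolases Acaa1a and Acaa1b are close relatives, and 34.0% of the 50-base stretches of Acaa1a and 35.5% of those of Acaa1b occur in the other, so their single values are uncertain. Acaa1b (ENSMUSG00000010651) had 9660.0, 9787 and 9986 scaled counts in control, 11652, 11504 and 11618 in β-CYP and 7153, 7072 and 6987 in selenite. It rose by 0.24 ± 0.023 (adjusted p = 7.1e-05) and then stood lowest in selenite, at -0.71 ± 0.023 from β-CYP (adjusted p = 2.1e-08) and -0.47 ± 0.023 from control (adjusted p = 2.9e-07). Acaa1a had 4829, 4793 and 4927 in control, 5109, 5441 and 4822 in β-CYP and 4078, 4292 and 4251 in selenite, with control and β-CYP overlapping. It did not pass in β-CYP (0.08 ± 0.044) and was -0.28 ± 0.044 from β-CYP to selenite (adjusted p = 0.00116, or 0.112 with equal totals). From control to selenite Acaa1a was at -0.21 ± 0.044 (adjusted p = 0.00619). That fall was lost with equal totals and under quantile normalization (adjusted p = 0.470 and 0.147).

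Decr2 and Eci2 help peroxisomes to oxidise unsaturated chains. Decr2 (ENSMUSG00000036775) had 4255, 4367 and 4543 scaled counts in control, 5129, 4925 and 4926 in β-CYP and 2795, 2638 and 2858 in selenite. Its fall to 0.553-fold of β-CYP was the lowest fold of the 36 genes in that comparison with the deposited scaling (log2 change -0.85 ± 0.040, adjusted p = 2.9e-07), and it was also below control, -0.67 ± 0.040 (adjusted p = 1.3e-06). Its rise in β-CYP, 0.19 ± 0.040 (adjusted p = 0.0110), did not pass with equal totals (adjusted p = 0.0574). Eci2 (ENSMUSG00000021417), an isomerase found in both mitochondria and peroxisomes, had 3191, 3245 and 3121 scaled counts in control, 5378, 4989.8 and 5363 in β-CYP and 4099.8, 4071 and 3959.5 in selenite. Selenite lay between the other groups, without overlap. Eci2 rose 1.64-fold in β-CYP (log2 change 0.72 ± 0.037, adjusted p = 8.4e-07) and was still 1.27-fold of control in selenite (adjusted p = 8.1e-05).

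Pex11a (ENSMUSG00000030545), a membrane protein that helps peroxisomes to divide, had 1876, 1539 and 1871 scaled counts in control, 2969, 2827 and 2281 in β-CYP and 2816, 2944 and 2244 in selenite. The treated groups overlapped each other and lay above control. Pex11a rose by 0.61 ± 0.13 in β-CYP (adjusted p = 0.0103) and by 0.59 ± 0.13 in selenite against control (adjusted p = 0.00684), and did not pass between the treated groups (-0.01 ± 0.13).

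**Figure D3:**
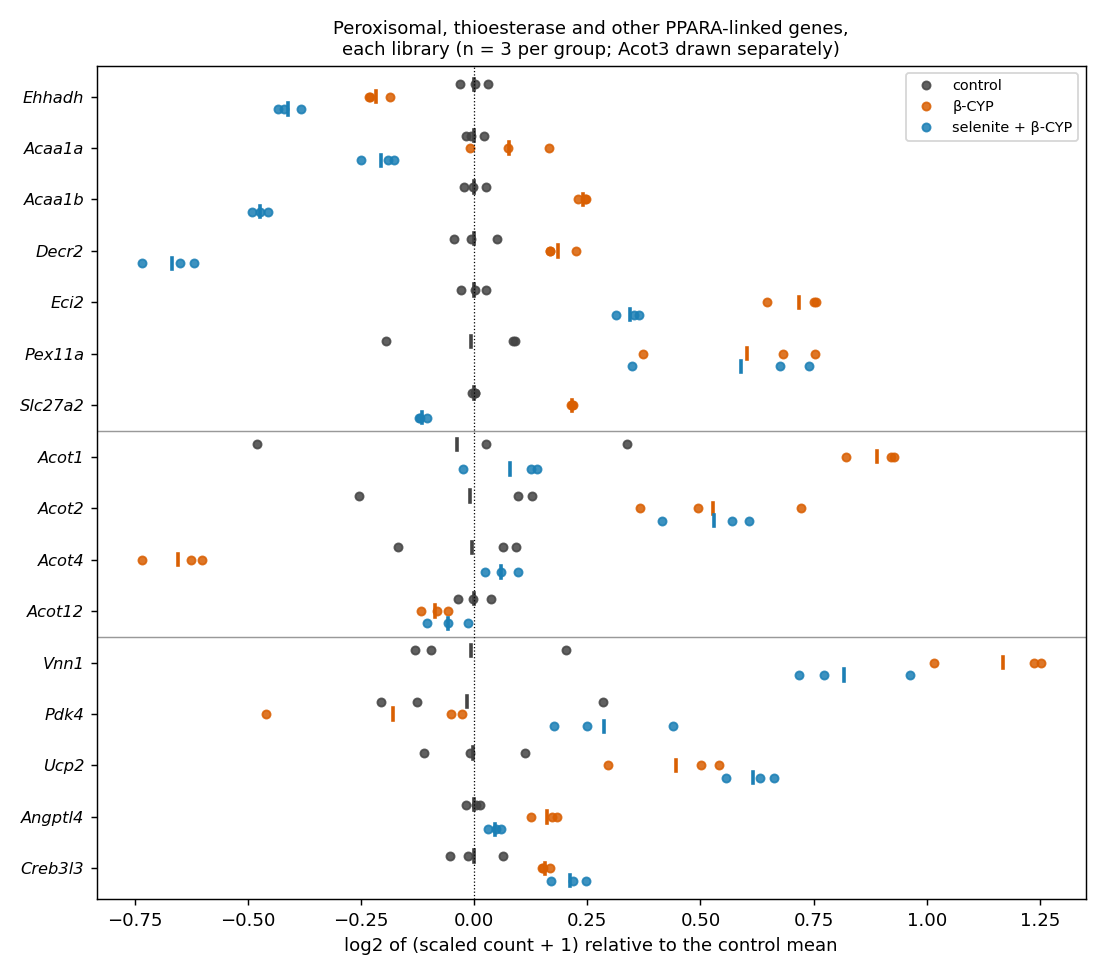
Each point is 1 library of control, β-CYP or selenite with β-CYP, as log2 of (scaled count + 1) relative to the control mean (x axis), and each tick the mean of its group, for the peroxisomal, thioesterase and other PPARA-linked genes, separated by lines. Decr2 and Acaa1b lie furthest to the left in selenite (-0.67 and -0.47 on the fitted log2 scale), while Vnn1, Ucp2 and Pex11a stay to the right of control in both treated groups; Acot3, with few reads, is left out here.

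Acyl-CoA thioesterases release free fatty acids from coenzyme A. Acot2, Acot1, Acot4 and Acot3 are neighbours in that order on chromosome 12 in the RefSeq annotation of GRCm38.p6, and are known as a mitochondrial, a cytosolic and, for the last 2, peroxisomal enzymes. Of these, Acot1 rose and Acot4 fell in β-CYP. Acot1 (ENSMUSG00000072949) had 211, 263 and 149 scaled counts in control, 394, 368 and 396 in β-CYP and 226, 229 and 204 in selenite. It was high in β-CYP, while selenite and control overlapped. Acot1 rose 1.9-fold in β-CYP (log2 change 0.93 ± 0.18, adjusted p = 0.00546) and was 0.57-fold of β-CYP in selenite (-0.81 ± 0.18, adjusted p = 0.00814). Acot4 (ENSMUSG00000052392) had 644, 657 and 549 scaled counts in control, 399, 406 and 371 in β-CYP and 643, 659.5 and 627 in selenite. It was low in β-CYP, and again selenite overlapped control. Acot4 fell in β-CYP (-0.65 ± 0.080, adjusted p = 0.000389) and rose by 0.71 ± 0.080 from β-CYP to selenite (adjusted p = 0.000137).

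Acot3, with few reads, had its groups in the same order as Acot4. It had 15.2, 27.2 and 10.3 scaled counts in control, 3.12, 0 and 10.2 in β-CYP and 35.9, 24.9 and 16.3 in selenite. Its log2 change was -2.27 ± 0.79 in β-CYP (adjusted p = 0.0871), and 2.83 ± 0.79 from β-CYP to selenite (adjusted p = 0.0277). The latter was lost in a fit of these groups alone (adjusted p = 0.0927) and without β-CYP replicate 1 or 2 or any 1 selenite library (adjusted p up to 0.0992), while the former passed without β-CYP replicate 3 (adjusted p = 0.0214). Acot2 had 83, 63.4 and 81.1 scaled counts in control, 126, 98 and 107 in β-CYP and 116, 101 and 113 in selenite, with both treated groups above control. Its rise in β-CYP, 0.54 ± 0.16, stood at the threshold (adjusted p = 0.0495) and did not pass in any of the 9 fits that each leave out 1 library, where the adjusted p reached 0.155. Against control in selenite it was 0.54 ± 0.16 (adjusted p = 0.0307), lost under quantile normalization (adjusted p = 0.114) and without control replicate 2 or selenite replicate 1 or 3 (adjusted p up to 0.0915). Shares of 33.2%, 27.7%, 19.5% and 4.87% of the 50-base stretches of Acot1, Acot2, Acot3 and Acot4 occur in transcripts of other genes, mostly of this family, which makes single values uncertain. Acot12, a cytosolic acetyl-CoA hydrolase on another chromosome, passed in no comparison, with 2997 ± 74.9 scaled counts in control, 2825 ± 58 in β-CYP and 2879 ± 91.1 in selenite (mean ± SD).

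**Figure D4:**
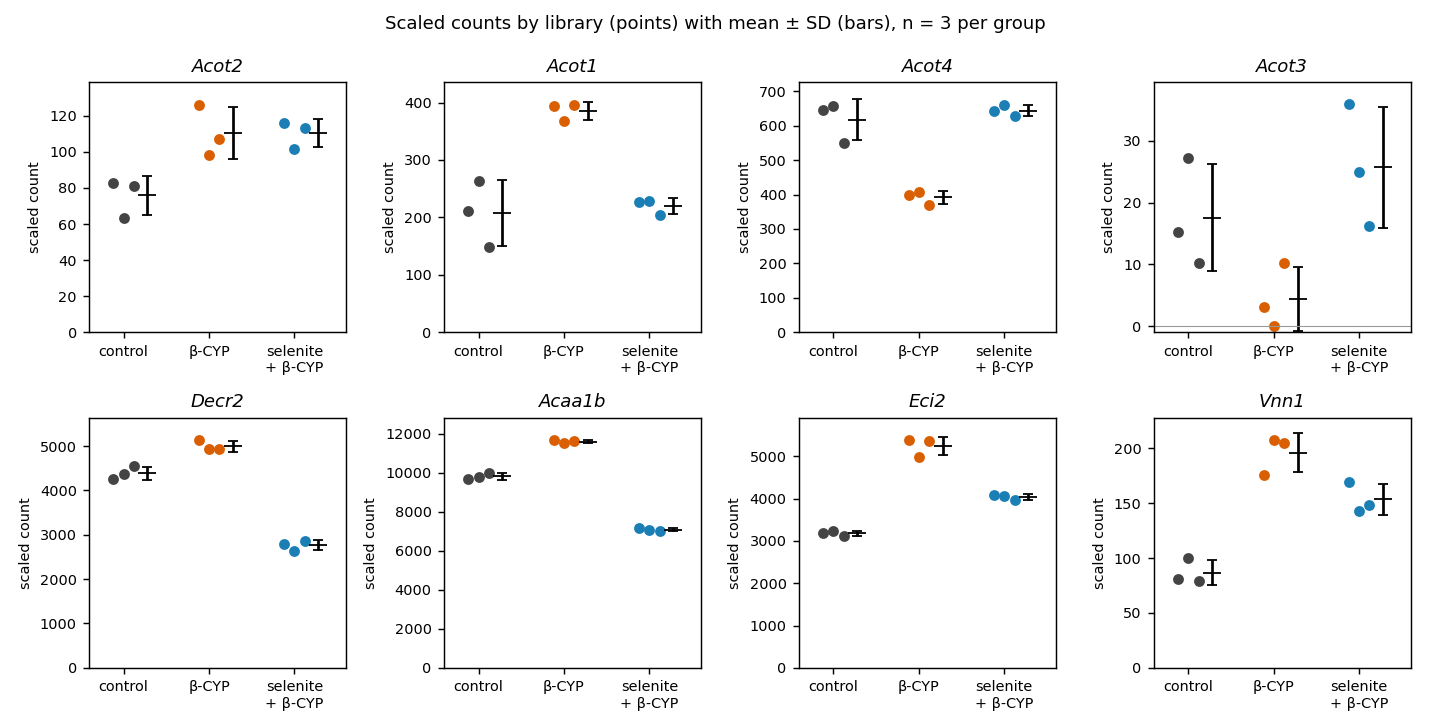
Scaled counts (y axis, from 0 except for Acot3, whose error bar reaches below it) of 8 genes in each library (points) by group (x axis), with mean ± SD (bars), n = 3. Acot1 is high and Acot4 low in the β-CYP libraries and both overlap control in selenite; Decr2 and Acaa1b are lowest in selenite, and Eci2 and Vnn1 are intermediate there.

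The gene of ketone body formation on the list is Bdh1 (ENSMUSG00000046598), the mitochondrial dehydrogenase that interconverts acetoacetate and β-hydroxybutyrate. Bdh1 had 9544, 9889 and 9523 scaled counts in control, 11322, 11360.1 and 11221 in β-CYP and 8289, 8540.5 and 8744 in selenite. β-CYP was highest and selenite lowest, without overlap. Bdh1 rose by 0.23 ± 0.027 in β-CYP (adjusted p = 0.000318) and fell from β-CYP to selenite, -0.41 ± 0.027 (adjusted p = 3.6e-06). Against control it fell in selenite with the deposited scaling (-0.18 ± 0.027, adjusted p = 0.000824), did not pass with equal totals (-0.043, adjusted p = 0.521) and was at 0.080 under quantile normalization (adjusted p = 0.0704).

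Of the other genes linked to PPARA, 4 of 5 rose in β-CYP and none fell, and in selenite against control 3 rose and none fell. Vnn1 (ENSMUSG00000037440), a pantetheinase whose product is a precursor of coenzyme A, had 80.9, 99.7 and 78.9 scaled counts in control, 176, 207 and 205 in β-CYP and 169, 143 and 149 in selenite. It rose 2.26-fold in β-CYP (log2 change 1.18 ± 0.14, adjusted p = 0.000274), the highest fold of the 36 genes there, and stayed above control in selenite (0.83 ± 0.14, adjusted p = 0.00145). Selenite was below β-CYP in every library, -0.35 ± 0.14, which did not pass (adjusted p = 0.103) except under quantile normalization (adjusted p = 0.0391).

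Ucp2 (ENSMUSG00000033685), a carrier of the inner mitochondrial membrane that macrophages also express, had 567, 661 and 608 scaled counts in control, 891, 751 and 866 in β-CYP and 948, 969 and 899.8 in selenite. The groups rose in that order without overlap. Ucp2 was 0.45 ± 0.081 in β-CYP (adjusted p = 0.00419) and 0.62 ± 0.081 in selenite against control (adjusted p = 0.000310), and between the treated groups it passed only with equal totals (adjusted p = 0.0217). Summed reads of 7 Kupffer cell and macrophage markers, none at 0, were 5724 to 6170 (control), 5624 to 6118 (β-CYP) and 8290 to 8648 (selenite). Of these 7 none rose and 2 fell in β-CYP, Cd163 (-1.55) and Vsig4 (-0.17) on the log2 scale, and 5 rose from β-CYP to selenite. Of the 6 neutrophil markers 5 rose in β-CYP. The part of these cells in the Ucp2 values was not tested.

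Angptl4, a secreted inhibitor of lipoprotein lipase, rose in β-CYP from 3696 ± 40.3 to 4130.4 ± 87.1 scaled counts (mean ± SD, adjusted p = 0.00419, or 0.0679 with equal totals). Its fall to 3817 ± 37.6 in selenite (log2 change -0.11 ± 0.029, adjusted p = 0.0182) turned to 0.013 with equal totals, and was lost under quantile normalization (-0.029, adjusted p = 0.583) and without β-CYP replicate 1 or 3 or selenite replicate 2 (adjusted p up to 0.0624). From control to selenite Angptl4 did not pass with the deposited scaling (0.05 ± 0.029). It passed upward there with equal totals (0.18, adjusted p = 0.0267) and under quantile normalization (0.15, adjusted p = 0.00624). Creb3l3, a membrane-bound transcription factor of the fasted liver, was at 9514 ± 389 in control, 10604 ± 67.9 in β-CYP and 11020.0 ± 299.8 in selenite, and rose in both against control (0.16 ± 0.033 and 0.21 ± 0.033), the first not with equal totals (adjusted p = 0.0846). From β-CYP to selenite Creb3l3 passed upward with equal totals (0.18, adjusted p = 0.0403) and under quantile normalization (0.32, adjusted p = 6.3e-05), and not with the deposited scaling (0.06 ± 0.033). Pdk4, the kinase that closes pyruvate dehydrogenase when fat is burned, passed in no comparison, with 145, 103 and 109 scaled counts in control, 114, 116 and 86 in β-CYP and 161, 141 and 134 in selenite.

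Further genes of these pathways, 83 by a list written for this work, were tested for 79. In β-CYP 21 rose and 19 fell (26.6% and 24.1%), where the shares were 7.72% and 8.58% of all genes and 17.8% and 21.6% of the genes with at least 1000 scaled counts. From β-CYP to selenite 9 rose and 40 fell (11.4% and 50.6%), against 11.6% and 12.3% of all genes and 18.0% and 36.5% of abundant ones. In selenite against control 14 rose and 41 fell (17.7% and 51.9%), against 14.4% and 14.5%, and 21.4% and 39.1%. The β-CYP shares were thus near those of abundant genes. The medians were 0.034, -0.21 and -0.18. With equal totals 10 rose and 25 fell from β-CYP to selenite, where 3238 and 1334 of all 20146 genes did. From control to selenite 18 rose and 26 fell, where 3977 and 1763 of all genes did. Under quantile normalization 12 rose and 29 fell from β-CYP to selenite, where 2308 and 2345 of all genes did. From control to selenite 22 rose and 33 fell under it, where 2814 and 2860 of all genes did. Without control replicate 3 the 19 falls in β-CYP were 12.

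By role, 2 of 22 further peroxisomal genes rose and 14 fell from β-CYP to selenite. These 14 falls were 10 with equal totals and 9 under quantile normalization. Of 27 mitochondrial genes 1 rose and 14 fell there. Their falls were 6 with equal totals, 10 under quantile normalization and 9 without selenite replicate 2. In β-CYP 6 of the peroxisomal genes rose and 7 fell, with 2 and 4 under equal totals and 4 falls without control replicate 1 or 3. Of the mitochondrial genes 4 rose and 6 fell in β-CYP. The 6 falls were 2 without control replicate 2, control replicate 3 or β-CYP replicate 1, and 3 without β-CYP replicate 3, and the 4 rises were 2 without β-CYP replicate 1. Of 9 ketone body genes 5 rose and 1 fell in β-CYP, and then 1 rose and 6 fell, or 4 with equal totals or under quantile normalization. Of 12 other PPARA targets 6 rose and 1 fell, and then 3 rose and 5 fell. Among 9 genes of PPARA and its partners 4 fell in β-CYP and none rose, or 1 without control replicate 3 or selenite replicate 1.

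By the rule of the 3 largest passing changes each way, the further genes that rose most in β-CYP were G0s2, an inhibitor of fat breakdown (1.33 ± 0.053), Plin2, a lipid droplet coat protein (0.87 ± 0.025), and Oxct1, which activates acetoacetate for use (0.79 ± 0.11). Those that fell most were the coactivators Ppargc1b (-1.24 ± 0.22) and Ppargc1a (-1.05 ± 0.12) and the peroxisomal coenzyme A diphosphatase Nudt7 (-0.54 ± 0.024). Ppargc1a went from 406 ± 21.2 scaled counts in control to 197 ± 34.7 in β-CYP and 155 ± 6 in selenite. From β-CYP to selenite the largest rises were those of the lipid droplet protein Cidec (2.12 ± 0.19), the peroxisomal transporter Abcd2 (1.47 ± 0.24) and the acyl-CoA synthetase Acsl3 (0.91 ± 0.068). The largest falls were those of the fatty acid hydroxylases Cyp4a14 (-4.18 ± 0.36) and Cyp4a10 (-2.86 ± 0.095) and of Nudt19 (-1.05 ± 0.072), another peroxisomal coenzyme A diphosphatase. Cyp4a10, a PPARA target in mouse liver, had 544, 603 and 656 scaled counts in control, 1069, 1095 and 953 in β-CYP and 154, 142 and 131 in selenite. The order was thus selenite, control, β-CYP, as with the deposited scaling for Acadvl, Acaa1b and Bdh1. Of Acadvl, Acaa1b and Bdh1, only Acaa1b also fell in selenite against control with equal totals and under quantile normalization. In selenite against control Cidec, G0s2 and Abcd2 rose most (2.71 ± 0.19, 1.55 ± 0.053 and 1.45 ± 0.24), and Cyp4a14, Cyp4a10 and Ppargc1a fell most (-3.33 ± 0.36, -2.07 ± 0.095 and -1.39 ± 0.12). Members of the Cyp4a family resemble each other in sequence, so single values are uncertain.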

How the data were processed

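The table deposited by the authors holds, for each of 25781 genes and 9 libraries, a log2 value. HISAT and Cufflinks were used with build mm9, per the submitters' processing notes, with no versions or roles. No source used here gives the counting step, its strand setting or its handling of shared reads. Undoing the log2 of (value + 1) gave scaled counts. These were divided by the smallest nonzero scaled count of their library, which was taken as 1 read. The results were whole numbers, within 0.02, for 100% of values in every library, and were used as reads. The design text and the library protocol name different sequencing platforms. Groups follow the sample titles. limma 3.58.1 in R 4.3.3 was fitted to log2(scaled count + 1) of all 9 libraries with 3 group means and an intensity trend, for the 20145 genes whose scaled counts averaged 1 or more, two-sided, with Benjamini-Hochberg adjustment over all of them and a threshold of 0.05. The model was tested on simulated data. Alternatives were 3 other scalings, a pseudocount of 10, a minimum mean of 10 or none, voom weights, fits to 2 groups, a replicate block and leaving out each library. The 36 genes and the lists were chosen with earlier results of these data known. Named were all 36 genes and, of the further genes, the 3 largest passing changes each way per comparison. Counting error and intervals cover reads, not molecules. The RefSeq and GENCODE M21 sequences are of build GRCm38, so no position was set against the authors' mapping.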

Additional observations from a re-analysis of the deposited data

How the results depend on the processing

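With the deposited scaling, 21 genes rose and 3 fell in β-CYP against control, 3 and 23 from β-CYP to selenite, and 7 and 16 from control to selenite. The selenite counts changed by over 1.5 times under 2 scalings. From β-CYP to selenite 5 rose and 14 fell with equal totals, and 5 rose under quantile normalization. From control to selenite 6 fell with equal totals, and 11 rose and 7 fell under quantile normalization. The counts of all genes under these 2 scalings are given above. The cause was not tested. Of the 1944 values of single genes under the 18 alternatives, 1853 kept their side of the threshold, 66 lost it, 12 gained it and 13 changed direction, and 32 of the first had another sign without passing in either fit. Those that changed direction were, from β-CYP to selenite, Cpt1a (0.076), Hadha (0.096) and Slc27a2 (0.069) under quantile normalization and Angptl4 (0.013) with equal totals. From control to selenite they were Acadl (0.0076), Acadm (0.079), Hadha (0.12), Acaa2 (0.12), Slc27a2 (0.29) and Bdh1 (0.080) under quantile normalization, and Acadl (0.031), Acadm (0.0064) and Slc27a2 (0.021) with equal totals. Same-numbered libraries of different groups did not deviate together (correlations over genes of -0.037 to 0.072). With a replicate block 21 genes rose and 3 fell, 2 and 23, and 7 and 15, without the calls of Acot3 from β-CYP to selenite (adjusted p = 0.0532) and Acadl from control to selenite (adjusted p = 0.0714). Genes with few reads, such as Acot3, are limited by depth.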
